A study of Mus musculus with 4 samples.

Results

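The mitochondrial ribosomal proteins were taken as every gene whose symbol starts with Mrpl or Mrps followed by a digit, and 77 of the 24369 listed genes met this rule. All 77 also had an expected count of 10 or more in at least 2 libraries, the lowest count of any of them in any library being 392, and all 77 were among the 14143 genes that entered the test. RNA-seq had been carried out on CD4 T cells that carried either an empty MSCV-IRES-eGFP retrovirus (EV RV) or MSCV-Tox-IRES-eGFP (Tox RV), with 2 libraries per group. Naive CD4 T cells came from the spleens of wild-type C57BL/6 mice, whose age is not given in the labels, and were activated without polarizing cytokines through CD3 and CD28 in the presence of IL-2 (the labels name human anti-CD28 in the place of IL-2). They were transduced on day 2, stimulated again on day 5 and sorted for GFP+ cells, so both groups share the activation, the infection and the sort and differ by the Tox insert. Each group represents 2 mice, and the labels do not say whether libraries with the same replicate number come from the same mouse. The Tox RV cells are a model of Tox expressed from a viral promoter in cultured cells, and the question asked of these genes was whether their mRNA levels differ when Tox is expressed in this way.

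Mitochondria carry their own ribosomes, which translate the few messages of the mitochondrial genome into core subunits of the respiratory chain and of ATP synthase. The ribosomal RNA of these particles is made inside the organelle, whereas all of their proteins are encoded in the nucleus, made in the cytosol and imported. Some of the proteins descend from bacterial ribosomal proteins and others were added in the line that led to mitochondria, and activated T cells are known to expand their mitochondria and to make more of this machinery.

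Depth in expected counts was 46989997 for EV RV replicate 1, 74548723 for EV RV replicate 2, 61442264 for Tox RV replicate 1 and 49012254 for Tox RV replicate 2, and values below are given in this order of replicates. *Rn45s*, the ribosomal RNA precursor, made up 24.7% and 11.97% of EV RV counts and 10.3% and 7.14% of Tox RV counts. EV RV replicate 1 stood apart from the rest on the first principal component, which held 58.0% of the variance, at -53.8 against 5.70 to 25.8. Values within a gene are given in CPM, the count scaled by TMM-normalized library size, and levels of different genes in TPM, a gene's share of all transcripts after correction for length. *Tox* itself was at 11.7 and 5.73 CPM in EV RV and at 121 and 99.9 CPM in Tox RV. *Cd4* was at 174 to 250 TPM. *Cd3e* varied more, at 285 and 88.7 TPM in EV RV against 109 and 85.7 TPM in Tox RV. The summed TPM of 6 T cell markers (*Cd3d*, *Cd3e*, *Cd3g*, *Cd4*, *Cd247* and *Lck*) was 1550 to 2170. Among these, *Cd4* alone separates CD4 from CD8 T cells. Of the 6, 5 were fitted higher in Tox RV (50.4% of all genes tested) and 1 lower, with log2 fold changes of -0.838 to 0.411. Summed TPM was 3.32 to 4.98 for 2 CD8 markers, 1.66 to 2.28 for 4 B cell markers and 1.06 to 2.56 for 6 myeloid markers. The sum of 5 NK markers was 53.8 and 9.79 in EV RV against 30.9 and 6.82 in Tox RV, and that of 3 erythroid markers was 7.89 and 6.56 in EV RV against 3.27 and 3.11 in Tox RV. The erythroid sum thus moved with the group and the NK sum with the replicate number, and the part of either in the results below was not tested. In bulk libraries, fewer cells of a type and less RNA per cell cannot be told apart.

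By role, 50 of the 77 genes encode proteins of the large subunit and 26 proteins of the small subunit. This count follows the place of the protein and not its symbol, since the products of *Mrps30* and *Mrps18a* sit in the large subunit. *Mrps36* was left in no class because its product is known as a component of the 2-oxoglutarate dehydrogenase complex. A different division gave 46 genes with a bacterial relative and 30 that are specific to mitochondria. The genes lie on 17 chromosomes of mm10, with the most, 10, on chromosome 11. The gene positions given here are those of GENCODE M21 (GRCm38/mm10).

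The promoters of these genes are shown first because a sequence letter pattern was shared by many of them. Among the 68 genes with a RefSeq promoter window (GRCm38.p6, 250 bases before to 50 after the start), 24 held the letters CCGGAAG, the core of sites for ETS family factors, on either strand, or 35.3%, against 17.3% of the windows of all genes tested and 9.12% of all windows. The letters AANATGGCG, the core of a YY1 site, were in 10 of the 68, or 14.7%, against 4.98% of tested genes and 2.51% of all windows. The palindromic site of NRF1, a regulator of nuclear genes for mitochondrial proteins, was matched in all its letters in 3 windows (4.41%, against 2.0% of tested genes and 0.977% of all windows). The E-box CACGTG was in 5 (7.35%, against 9.86% and 7.24%), CCAAT was in 27 (39.7%, against 38.7% and 37.9%) and TATAAA was in 4 (5.88%, against 7.31% and 14.2%). All 6 patterns were searched on both strands, and these counts of letter matches are descriptions of the windows and not of binding. The windows of 5 genes are printed because they span the range of values below, from *Mrps5*, *Mrpl42* and *Mrps22* with the highest log2 fold changes through *Mrps12* to *Mrpl27* with the lowest. They are given from 5′ to 3′ on the strand of the gene, with matches to CCGGAAG, AANATGGCG or CCAAT on either strand in capitals.
Mrps5, chr2:127587176-127587475, plus strand: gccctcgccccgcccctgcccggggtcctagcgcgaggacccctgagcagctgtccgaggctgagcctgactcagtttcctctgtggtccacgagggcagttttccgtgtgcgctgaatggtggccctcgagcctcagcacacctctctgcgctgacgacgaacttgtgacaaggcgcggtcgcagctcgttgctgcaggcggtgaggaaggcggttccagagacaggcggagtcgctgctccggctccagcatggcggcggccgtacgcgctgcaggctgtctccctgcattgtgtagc
Mrpl42, chr10:95501900-95502199, minus strand: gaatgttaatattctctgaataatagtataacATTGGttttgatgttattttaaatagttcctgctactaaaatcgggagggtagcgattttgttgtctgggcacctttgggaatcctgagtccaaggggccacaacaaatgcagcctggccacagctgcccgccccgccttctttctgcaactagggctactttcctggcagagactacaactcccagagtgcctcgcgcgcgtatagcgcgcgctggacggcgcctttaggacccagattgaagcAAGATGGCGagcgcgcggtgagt
Mrps22, chr9:98601630-98601929, minus strand: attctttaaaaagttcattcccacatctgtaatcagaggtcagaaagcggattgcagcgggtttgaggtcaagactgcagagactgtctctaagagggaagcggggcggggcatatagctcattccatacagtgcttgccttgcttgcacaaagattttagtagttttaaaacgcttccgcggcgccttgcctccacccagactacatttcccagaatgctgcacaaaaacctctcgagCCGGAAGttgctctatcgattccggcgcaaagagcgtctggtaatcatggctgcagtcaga
Mrps12, chr7:28741772-28742071, minus strand: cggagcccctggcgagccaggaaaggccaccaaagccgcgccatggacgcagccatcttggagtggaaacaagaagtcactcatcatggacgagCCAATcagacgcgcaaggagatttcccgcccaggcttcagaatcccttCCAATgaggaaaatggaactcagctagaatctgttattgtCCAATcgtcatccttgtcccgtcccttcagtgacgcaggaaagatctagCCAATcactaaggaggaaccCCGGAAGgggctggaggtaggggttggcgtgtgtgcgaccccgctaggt
Mrpl27, chr11:94653541-94653840, plus strand: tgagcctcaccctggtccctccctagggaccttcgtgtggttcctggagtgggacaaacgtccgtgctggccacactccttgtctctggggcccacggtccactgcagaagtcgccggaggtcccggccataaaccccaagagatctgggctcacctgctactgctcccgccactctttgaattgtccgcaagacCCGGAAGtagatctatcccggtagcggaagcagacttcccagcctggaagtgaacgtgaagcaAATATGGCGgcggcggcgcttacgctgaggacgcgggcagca
The *Mrps5* window held 0 matches to these 3 patterns, as did those of *Mrps6* and *Mrpl46*, which are not printed. The *Mrps12* window held 1 match to CCGGAAG and 4 to CCAAT. In the *Mrpl42* window there was 1 match to AANATGGCG, close to the start of the transcript, and 1 to CCAAT, read on the opposite strand as ATTGG. *Mrps22* held a single CCGGAAG, and *Mrpl27* held 1 CCGGAAG and 1 AANATGGCG. The GC content of the 68 windows had a median of 58.2%, against 60.3% over the windows of all genes tested. The median log2 fold change was 0.19 for the 24 genes with CCGGAAG and 0.24 for the 44 without it, and in 11 of the 24 and 25 of the 44 the lower Tox RV library exceeded the higher EV RV library, against 18.6% of all genes tested. With AANATGGCG the median was 0.04 over 10 genes, and without it 0.21 over 58 genes, with 3 of the 10 and 33 of the 58 above without overlap. No test was run on these divisions.

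The mRNAs of mitochondrial ribosomal proteins were at a middle to high level in all 4 libraries. The mean TPM over the 4 libraries ran from 9.14 for *Mrpl17* to 156 for *Mrpl30*, a ratio of 17.1, with a median of 50.03 and quartiles of 30.2 and 70.2. Of the 77 genes, 74 were at or above the median of all genes tested, which was 11.4 TPM. The order of the genes was much the same in every library, with the lowest Spearman rho between any 2 libraries at 0.956. This coefficient is across 77 genes whose lengths and sequence are the same in each library, and genes are not independent replicates.

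**Figure D1:**
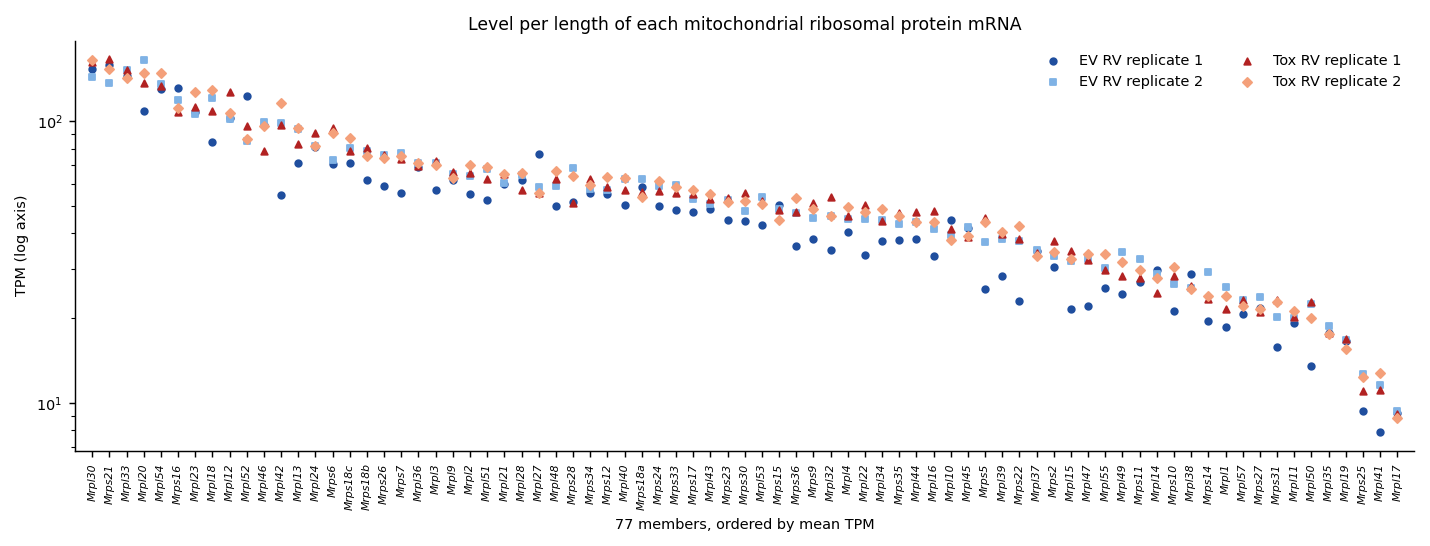
TPM on a log axis of each of the 77 mitochondrial ribosomal protein mRNAs in the 4 libraries, ordered by the mean. Levels run from 9.14 TPM (*Mrpl17*) to 156 TPM (*Mrpl30*), and the circles of EV RV replicate 1 lie below the other symbols for many genes.

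At the top of this order stood *Mrpl30*, a large subunit protein with a bacterial relative, with 153 and 144 TPM in EV RV against 162 and 165 TPM in Tox RV. *Mrps21*, of the small subunit, followed with 159 and 137 TPM in EV RV against 166 and 153 TPM in Tox RV. *Mrpl33* was at 144.5 and 152 TPM in EV RV against 152.4 and 142 TPM in Tox RV. Over the 4 libraries the range of each of these genes overlapped those of the others. The EV RV and Tox RV values of *Mrpl30* did not overlap.

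*Mrpl20*, a protein that binds the large subunit RNA early in assembly of the bacterial ribosome, varied more, with 108.5 and 165 TPM in EV RV against 137 and 148.5 TPM in Tox RV. *Mrpl54*, which is specific to mitochondria, had 131 and 136 TPM in EV RV against 133 and 148 TPM in Tox RV. Over the 4 libraries the ranges of these 5 genes overlapped between genes, so their order lies within the spread of the libraries. At the low end were *Mrps25* (9.36 and 12.7 TPM in EV RV, 11.1 and 12.4 TPM in Tox RV) and *Mrpl41* (7.88 and 11.6 TPM in EV RV, 11.1 and 12.8 TPM in Tox RV). *Mrpl17* was the steadiest of the low genes, at 9.18 and 9.34 TPM in EV RV against 9.17 and 8.87 TPM in Tox RV. The effective lengths behind the TPM of *Mrpl17* and *Mrps25* were 6563 and 5927 bases, against a median of 906 bases over the 77 genes and 2572 bases over all genes tested. Their low TPM goes with CPM of 36.0 to 39.1 for *Mrpl17* and 33.2 to 47.6 for *Mrps25*. *Mrps25* shares 4590 exon bases with *Nr2c2* on the other strand, so its counts are uncertain.

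The proportions between the mRNA levels of large and small subunit genes were close in all libraries. The mean TPM of the 50 large subunit genes was 1.09 and 1.08 times that of the 26 small subunit genes in EV RV against 1.06 and 1.08 times in Tox RV. The summed TPM of all 77 genes was 4011 and 4481 in EV RV against 4514 and 4609 in Tox RV, and EV RV replicate 1 was the lowest. Summed TPM of 86 cytosolic ribosomal protein genes was 55.1 and 52.1 times that of the 77 genes in EV RV against 55.0 and 51.2 times in Tox RV. For 78 nuclear-encoded oxidative phosphorylation genes the ratio was 3.44 and 3.84 in EV RV against 3.48 and 3.59 in Tox RV. The groups overlapped in the latter 2 ratios.

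None of the 77 genes differed between Tox RV and EV RV at an adjusted p below 0.05, as was the case for every gene tested (0.0% called), and their fitted changes were small. By the quasi-likelihood test of edgeR, adjusted over 14143 genes by Benjamini-Hochberg, the smallest adjusted p among them was 0.897, shared by 45 genes. DESeq2 also called 0 of the 77, against 0.121% of the genes it tested. The transduced gene *Tox* itself, at a log2 fold change of 3.675, was not called by edgeR (edgeR adjusted p = 0.49). DESeq2 did call *Tox* (DESeq2 adjusted p = 3.79e-24). The absence of calls in edgeR therefore does not show that the 77 genes were unchanged. At an unadjusted p below 0.05, edgeR had 1 gene higher in Tox RV (*Mrps6*; 1.07% of all genes tested) and 0 lower (2.55% of all genes tested), and DESeq2 had 1 higher (*Mrps5*; 0.726%) and 0 lower (2.48%). The log2 fold changes ran from -0.185 to 0.58, that is from 0.88-fold to 1.5-fold. Their standard errors were 0.16 to 0.32 with a median of 0.19, and for 35 of the 77 genes the standard error was larger than the fold change itself on the log2 scale.

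The direction was uneven. Of the 77 genes, 68 were fitted higher in Tox RV (88.3%, against 50.4% of all genes tested) and 9 lower, with a median log2 fold change of 0.19 (1.14-fold), against 0.00 over all genes tested. In 41 genes both Tox RV libraries exceeded both EV RV libraries, or 53.2%, against 18.6% of all genes tested. Both were below for 2 genes, *Mrpl27* and *Mrps16*, against 17.4% of all genes tested, and the groups overlapped for the other 34. With TPM in place of scaled counts, 27 genes were above without overlap (11.6% of all genes tested) and 10 below (23.2% of all genes tested). Scaling by library totals moved the median of all genes by over 0.1, to 0.12, and the median of the 77 genes to 0.31, so that they stood 0.19 above all genes under that scaling as under the main one. Over all fits that used the 4 libraries, the median of the 77 genes was 0.16 to 0.25 above that of all genes. Across the 77 genes, Spearman's rho of the log2 fold change was -0.001 with effective length and -0.038 with mean TPM.

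**Figure D2:**
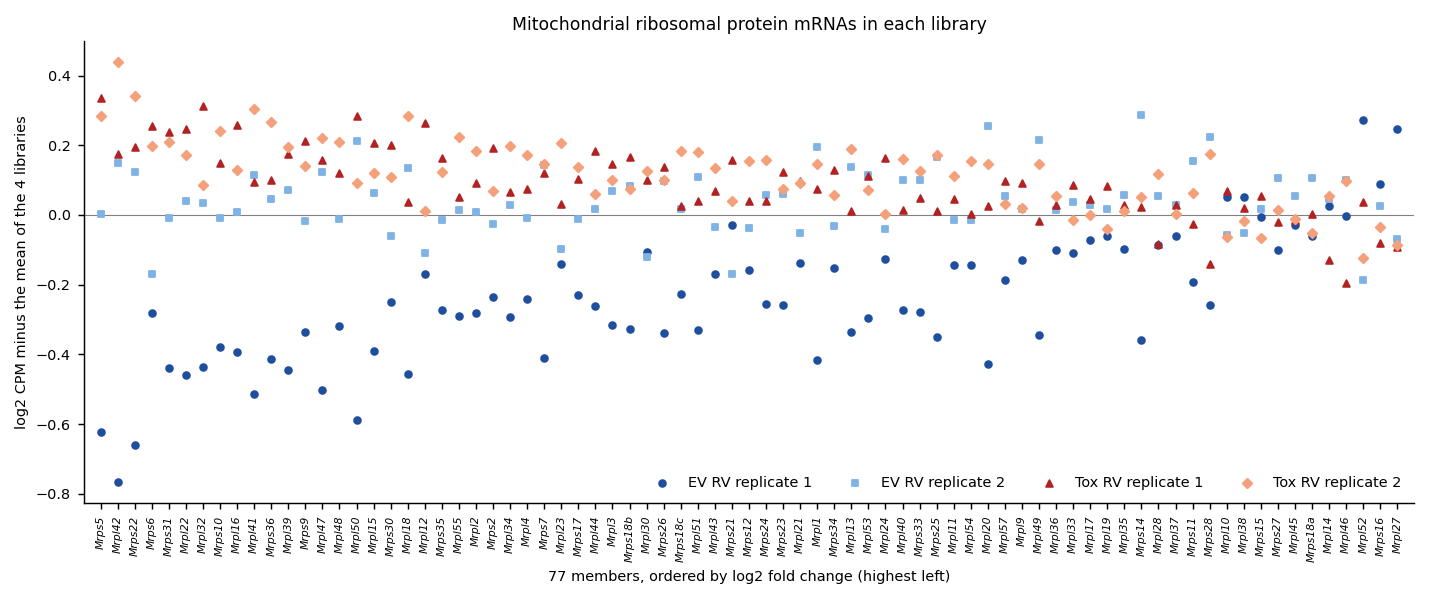
Log2 CPM of each of the 77 genes minus its mean over the 4 libraries, ordered from the highest log2 fold change (*Mrps5*, left) to the lowest (*Mrpl27*, right). EV RV replicate 1 (dark circles) is the lowest library for 67 genes. EV RV replicate 2 (light squares) lies below both Tox RV symbols for 43 genes, above both for 14 and between them for 20.

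The uneven direction went with a single library. EV RV replicate 1 was the lowest of the 4 libraries for 67 of the 77 genes, or 87.0%, against 37.0% of all genes tested. Between the EV RV replicates the 77 genes differed by a median of -0.28 on the log2 scale (replicate 1 minus replicate 2), and 70 of them were lower in replicate 1. Between the Tox RV replicates this median was -0.03, with 42 lower in replicate 1, and over all genes tested the EV RV median was 0.01. The difference between the 2 control libraries was thus larger than the median difference between the groups. The 77 genes took 0.193% and 0.265% of all counts in EV RV against 0.276% and 0.287% in Tox RV, and without *Rn45s* 0.257% and 0.301% in EV RV against 0.308% and 0.309% in Tox RV.

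Without EV RV replicate 1, the 77 genes had a median log2 fold change of 0.06 and 49 of them were fitted higher (63.6%, against 50.5% of all genes tested). In that fit 0 passed an adjusted p below 0.05 in edgeR (0.00685% of all genes tested), and at an unadjusted p below 0.05 *Mrps6* was the 1 gene higher (3.28% of all genes tested) and 0 were lower (4.2% of all genes tested). Both Tox RV libraries were above EV RV replicate 2 for 43 genes (36.9% of all genes tested), below it for 14 (33.5% of all genes tested) and on either side of it for 20. Without EV RV replicate 2 the median was 0.37, with 40 genes higher at an unadjusted p below 0.05 (14.9% of all genes tested) and 3 past an adjusted p below 0.05 (4.16% of all genes tested). These 3 were *Mrpl42*, *Mrps22* and *Mrps5*, with log2 fold changes of 1.08, 0.94 and 0.94 and edgeR adjusted p of 0.0461, 0.0475 and 0.0434 in that fit. In such fits the lone EV RV library is assumed to vary like the Tox RV libraries. Leaving out a Tox RV library gave medians of 0.20 and 0.17.

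The highest log2 fold changes belonged to *Mrps5*, *Mrpl42*, *Mrps22*, *Mrps6* and *Mrps31*, of which 4 encode small subunit proteins. *Mrps5* (chr2:127587222-127606829) encodes the relative of bacterial S5, a protein at the entry of the mRNA channel. Its CPM was 19.8 and 30.5 in EV RV against 38.4 and 37.1 in Tox RV. The groups did not overlap, and the EV RV libraries differed by more than did EV RV replicate 2 and Tox RV. The log2 fold change was 0.58 with a standard error of 0.25 (edgeR adjusted p = 0.897), and 0.30 without EV RV replicate 1.

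*Mrpl42* (chr10:95480805-95501940), which encodes a large subunit protein specific to mitochondria, was at 17.0 and 32.0 CPM in EV RV against 32.6 and 39.2 CPM in Tox RV. The second EV RV library lay just under the first Tox RV library and far above the first EV RV library. The log2 fold change was 0.55 with a standard error of 0.32, the largest among the 77 genes, and 0.16 without EV RV replicate 1. *Mrps22* (chr9:98588730-98601660), a small subunit protein specific to mitochondria mutations of which cause mitochondrial disease in humans, had 14.9 and 25.7 CPM in EV RV against 27.0 and 29.8 CPM in Tox RV. Here too the groups did not overlap and the low value was that of EV RV replicate 1. Its log2 fold change was 0.48 with a standard error of 0.285, and 0.14 without that library.

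*Mrps6* (chr16:92058270-92112227), the relative of bacterial S6 in the small subunit, differed from these in that its EV RV libraries were close. Its CPM was 27.4 and 29.5 in EV RV (28.4 ± 1.55, SD, n = 2) and 39.7 and 38.1 in Tox RV (38.9 ± 1.11, SD, n = 2). The gap between the groups was larger than the spread within either. The log2 fold change was 0.45 with a standard error of 0.17 (edgeR adjusted p = 0.897), and it was 0.39 to 0.51 when any 1 library was left out. *Mrps6* shares 159 exon bases on the same strand with *Slc5a3*, an inositol transporter gene that lies within its span. *Mrps6* also shares 305 exon bases on the same strand with *Gm49711*, so the counts of *Mrps6* are uncertain. *Slc5a3* was at 238 and 171 CPM in EV RV against 192 and 167 CPM in Tox RV. The *Slc5a3* groups overlapped, the log2 change being -0.19 (standard error 0.22), or 0.06 without EV RV replicate 1, and the part of its reads in the *Mrps6* values was not tested.

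*Mrps31* (chr8:22411361-22429665), another small subunit protein specific to mitochondria, had 13.1 and 17.7 CPM in EV RV against 20.9 and 20.5 CPM in Tox RV. Its groups did not overlap. The log2 fold change was 0.43 with a standard error of 0.21, and 0.225 without EV RV replicate 1.

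The 5 lowest log2 fold changes lay between -0.07 and -0.185, and each was smaller than its standard error. *Mrpl27* (chr11:94653767-94660089) encodes the relative of bacterial L27, whose tail reaches toward the peptidyl transferase centre. It was at 31.0 and 24.97 CPM in EV RV against 24.6 and 24.7 CPM in Tox RV. The second EV RV library was almost level with Tox RV, and the log2 fold change of -0.185 (standard error 0.19) was -0.03 without EV RV replicate 1. *Mrps16* (chr14:20389304-20393634), the relative of bacterial S16, was at 32.9 and 31.4 CPM in EV RV against 29.2 and 30.1 CPM in Tox RV. Its groups did not overlap, with a log2 fold change of -0.115 and a standard error of 0.16.

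*Mrpl52*, specific to mitochondria, had 19.4 and 14.2 CPM in EV RV against 16.5 and 14.8 CPM in Tox RV. The Tox RV values lay between the EV RV values, and the log2 fold change was -0.10 with a standard error of 0.22. *Mrpl46* (chr7:78775236-78783531) was at 59.6 and 64.0 CPM in EV RV against 52.2 and 63.9 CPM in Tox RV. Its groups overlapped, with a log2 fold change of -0.09 and a standard error of 0.18, and its exons share 173 bases with those of *Mrps11* on the other strand. *Mrpl14*, a protein at the face between the subunits, was at 9.29 and 9.42 CPM in EV RV against 8.35 and 9.48 CPM in Tox RV, with overlapping groups and a log2 fold change of -0.07 (standard error 0.20). Scaling by library totals turned the last 4 of these 5 genes to small positive values.

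**Figure D3:**
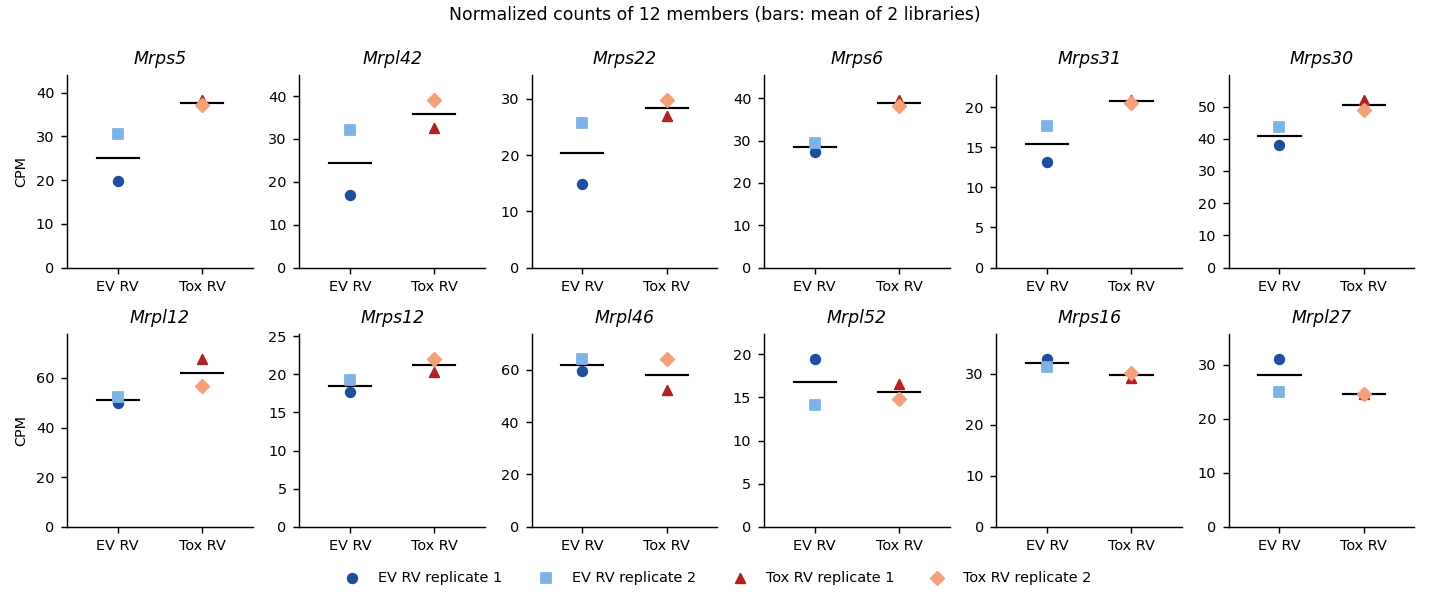
TMM-normalized CPM of 12 genes in each library, with bars for the mean of 2 libraries and axes that start at 0. *Mrps6* is at 27.4 and 29.5 in EV RV against 39.7 and 38.1 in Tox RV with little spread, whereas for *Mrps5*, *Mrpl42* and *Mrps22* EV RV replicate 1 lies far below EV RV replicate 2.

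Genes with a known place in the working of the particle are given next. *Mrps12* (chr7:28739641-28741820) encodes the relative of bacterial S12, which stands at the decoding centre. Its CPM was 17.7 and 19.3 in EV RV against 20.3 and 22.0 in Tox RV. The groups did not overlap, and the log2 fold change was 0.19 with a standard error of 0.175, or 0.13 without EV RV replicate 1. *Mrpl12* (chr11:120484613-120489065), the relative of the stalk protein that recruits translation factors to the large subunit, was at 50.04 and 52.1 CPM in EV RV against 67.6 and 56.7 CPM in Tox RV. The spread was on the Tox RV side for this gene, and the log2 fold change was 0.28 with a standard error of 0.18, from 0.15 to 0.41 as single libraries were left out.

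The 3 genes with an *Mrps18* symbol did not share a sign. In the division used here, *Mrps18c* was counted with a bacterial relative and *Mrps18a* and *Mrps18b* as specific to mitochondria. *Mrps18b* was at 34.3 and 45.5 CPM in EV RV against 48.2 and 45.3 CPM in Tox RV, with overlapping groups and a log2 fold change of 0.23 (standard error 0.20) that was 0.03 without EV RV replicate 1. *Mrps18c* was at 16.1 and 19.1 CPM in EV RV against 19.2 and 21.4 CPM in Tox RV, without overlap and with 0.21 as log2 fold change (standard error 0.19), or 0.08 without that library. *Mrps18a*, the one whose product sits in the large subunit, was at 24.96 and 28.04 CPM in EV RV against 26.1 and 25.1 CPM in Tox RV, with a log2 fold change of -0.05 (standard error 0.17) that was 0.07 when libraries were scaled by their totals.

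*Mrps30* (chr13:118378381-118387252), a large subunit protein despite its name, was at 38.2 and 43.5 CPM in EV RV against 52.1 and 48.9 CPM in Tox RV. Its groups did not overlap, and the log2 fold change was 0.31 with a standard error of 0.17 and 0.21 to 0.41 with any 1 library left out. *Mrpl41*, specific to mitochondria, had 10.7 and 16.6 CPM in EV RV against 16.4 and 18.9 CPM in Tox RV, with overlapping groups and a log2 fold change of 0.37 (standard error 0.26) that was 0.08 without EV RV replicate 1. *Mrps36* had 12.3 and 16.9 CPM in EV RV against 17.5 and 19.7 CPM in Tox RV, without overlap, and a log2 fold change of 0.35 (standard error 0.22) that was 0.13 without EV RV replicate 1.

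Among the most abundant genes, *Mrpl30*, *Mrps21* and *Mrpl54* had groups that did not overlap in CPM, with Tox RV higher. *Mrpl30* was at 49.6 and 49.1 CPM in EV RV against 57.2 and 58.3 CPM in Tox RV, with a log2 fold change of 0.23 and a standard error of 0.16. It stayed at 0.22 to 0.23 whichever library was left out. For *Mrps21* the fitted log2 change was 0.20 (standard error 0.17) and for *Mrpl54* it was 0.16 (standard error 0.17), or 0.09 without EV RV replicate 1. *Mrpl20* and *Mrpl33* were at 0.13 and 0.07 with overlapping groups. Of the least abundant genes, *Mrps25* was at 0.16 and *Mrpl17* at 0.04, both with overlapping groups. Without EV RV replicate 1 these 4 genes were at -0.17, -0.005, -0.08 and -0.01.

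The subunits and the evolutionary classes had like values, to be read against 50.4% of all genes tested that were fitted higher and 18.6% that were above without overlap. The 50 large subunit genes had a median log2 fold change of 0.18 with 44 fitted higher and 25 above without overlap, and the 26 small subunit genes a median of 0.20 with 23 fitted higher and 15 above without overlap. The 46 genes with a bacterial relative had a median of 0.20 with 42 fitted higher and 27 above without overlap. For the 30 genes specific to mitochondria the median was 0.19, with 25 fitted higher and 13 above without overlap. EV RV replicate 1 was the lowest library for 39 of the 46 genes with a bacterial relative and for 27 of the 30 specific to mitochondria. This was so for 37.0% of all genes tested.

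Another 6 proteins of the mitochondrial ribosome go by other symbols and were not members by the rule. Their median log2 fold change was 0.17, with 4 fitted higher, and -0.05 without EV RV replicate 1. *Ict1*, a peptidyl-tRNA hydrolase built into the large subunit, was at 16.1 and 15.0 CPM in EV RV against 18.1 and 20.9 CPM in Tox RV, with a log2 fold change of 0.32 (standard error 0.18). *Dap3*, a GTP-binding small subunit protein, was at 54.7 and 58.4 CPM in EV RV against 45.6 and 53.6 CPM in Tox RV, with a log2 fold change of -0.19 (standard error 0.18). The groups of neither gene overlapped, and their signs were opposite.

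**Figure D4:**
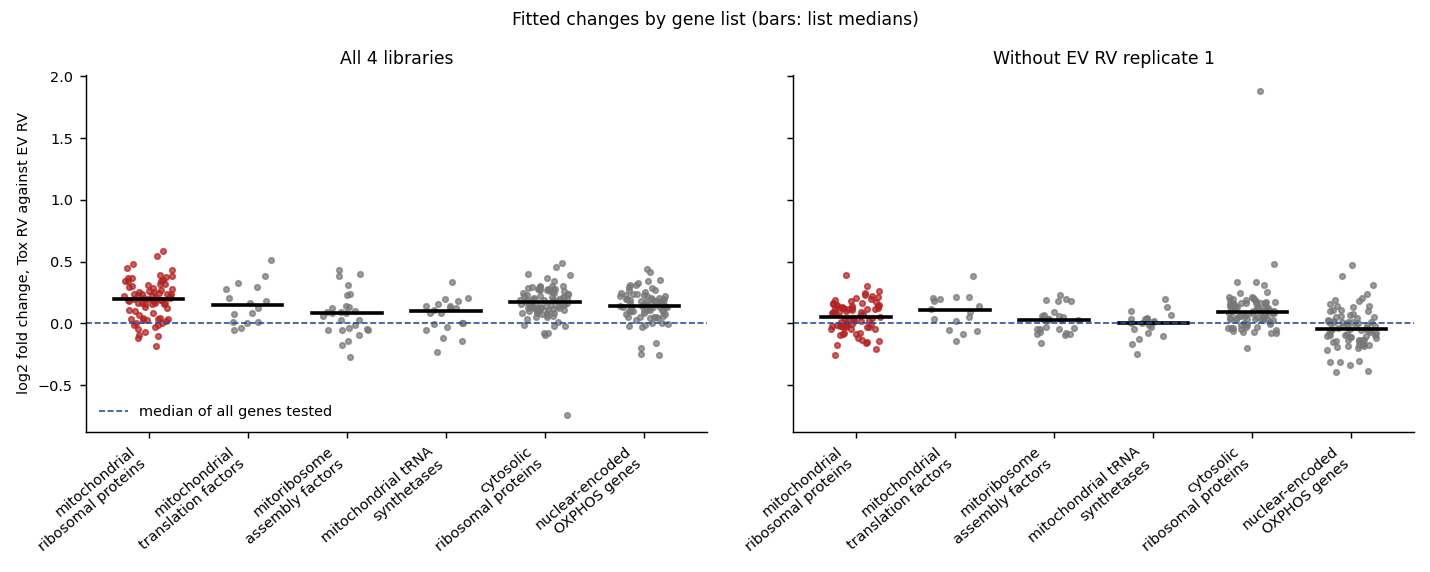
Log2 fold change (Tox RV against EV RV) of each tested gene in 6 lists, with all 4 libraries (left) and without EV RV replicate 1 (right), bars marking list medians and the dashed line the median of all genes tested. The median of the mitochondrial ribosomal proteins is 0.19 on the left and 0.06 on the right, and that of the oxidative phosphorylation genes is 0.14 and -0.04.

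Other genes of mitochondrial translation were taken from lists, and 0 of them passed an adjusted p below 0.05 in edgeR. A list of 16 tested genes held translation factors and the related genes *Lrpprc*, *Slirp*, *Oxa1l* and *Letm1*. Of these 16, 14 were fitted higher and 7, with *Lrpprc* and *Letm1* among them, were above without overlap. The median log2 fold change of the 16 was 0.15, or 0.11 without EV RV replicate 1. The list included *Gfm1*, the elongation factor that moves the ribosome along the mRNA, at 52.4 and 60.9 CPM in EV RV against 72.5 and 69.7 CPM in Tox RV (log2 fold change 0.33, standard error 0.17, and 0.22 without EV RV replicate 1). *Tufm*, which delivers aminoacyl-tRNA, was at 53.5 and 51.2 CPM in EV RV against 60.1 and 58.6 CPM in Tox RV (log2 fold change 0.18, standard error 0.16). Without overlap, 43.8% of the 16 genes of this list were above, against 18.6% of all genes tested, while 50.4% of all genes tested were fitted higher. For 27 assembly factors the median was 0.08 with 17 fitted higher and 6 (22.2%) above without overlap, and without EV RV replicate 1 the median was 0.03. For 20 tRNA synthetases and related enzymes it was 0.10 with 14 fitted higher and 4 above without overlap, and 0.01 without that library.

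A list of 15 tested genes held regulators of mitochondrial biogenesis and proteins that copy or transcribe mitochondrial DNA (*Polg*, *Polg2*, *Peo1* and *Polrmt*). Of these 15, 10 were fitted higher and 5 lower, with a median of 0.07. Without overlap, 3 were above, against 18.6% of all genes tested, and 2 were below, against 17.4% of all genes tested. The log2 change of *Nrf1* was 0.08 (standard error 0.16), that of *Gabpa*, the ETS factor known for acting on nuclear genes of mitochondrial proteins, 0.26 (standard error 0.205), and *Tfam*, the packaging and transcription factor of mitochondrial DNA, 0.20 (standard error 0.20). Without EV RV replicate 1 these values were 0.04, 0.06 and 0.01, and the groups overlapped for *Gabpa* and *Tfam*. Apart from *Myc*, the genes of this list fitted lower were *Pprc1* at -0.412 (standard error 0.25), *Polg* at -0.293 (0.17), *Ppargc1b* at -0.196 (0.25) and *Polg2* at -0.087 (0.22). Of these only *Polg* had groups that did not overlap. Without EV RV replicate 1, *Pprc1* was at -0.104, *Polg* at -0.351, *Ppargc1b* at 0.016 and *Polg2* at -0.041. *Myc*, a general driver of ribosome genes, was the only gene of these lists at an unadjusted p below 0.05, at 226 and 165.5 CPM in EV RV against 147 and 117 CPM in Tox RV. Its groups did not overlap, with Tox RV lower, and the log2 change was -0.57 with a standard error of 0.23 (edgeR adjusted p = 0.897) and -0.33 without EV RV replicate 1. The genes of the mitochondrial genome were not analysed here.

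The 2 larger sets that share a product or a place with these genes differed from them in how they held without EV RV replicate 1. Over all genes tested, 50.4% were fitted higher, 18.6% were above without overlap and 37.0% had EV RV replicate 1 as the lowest library. Without EV RV replicate 1, 50.5% of all genes tested were fitted higher. The 84 cytosolic ribosomal protein genes tested had a median log2 fold change of 0.18 with 77 fitted higher and 51 (60.7%) above without overlap, and without that library the median was 0.09 with 66 fitted higher. The 78 oxidative phosphorylation genes had a median of 0.14 with 68 fitted higher and 19 (24.4%) above without overlap, and without that library the median was -0.04 with 31 fitted higher. EV RV replicate 1 was the lowest library for 63 of the former and 66 of the latter. The 3 sets thus had close medians over 4 libraries and medians of 0.06, 0.09 and -0.04 without EV RV replicate 1. The differences between the sets were not tested.

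Many mitochondrial ribosomal protein genes start near the start of another gene on the other strand, and some of these pairs overlap. In GENCODE M21, the start of 25 of the 77 genes (32.5%) lay within 500 bases of the start of a protein-coding gene on the other strand, against 1687 of 12640 tested protein-coding genes (13.3%). *Mrps12*, whose window is printed above, starts 172 bases from *Sars2*, the mitochondrial seryl-tRNA synthetase, and *Mrpl46* and *Mrps11* start 412 bases from each other. Leaving out that last pair and a partner that was not tested, 22 pairs could be compared. The members had a median log2 fold change of 0.19 and their partners of 0.03, the member was above its partner in 15 of the 22, and 11 members and 4 partners were above without overlap, against 18.6% of all genes tested. Without EV RV replicate 1 these medians were 0.03 and -0.01.

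**Figure D5:**
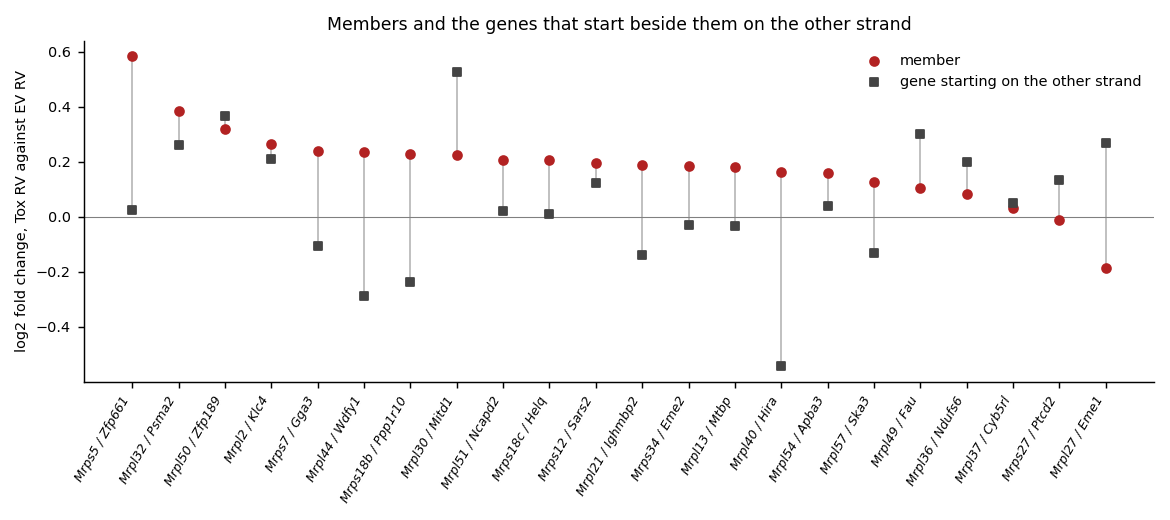
Log2 fold change (Tox RV against EV RV) of 22 mitochondrial ribosomal protein genes (circles) and of the gene that starts within 500 bases on the other strand (squares), joined by lines. The circles are above the squares in 15 pairs, and the widest gap is that of *Mrpl40* at 0.16 and *Hira* at -0.54.

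Single pairs went both ways. *Mrps12* and *Sars2* were at 0.19 and 0.12, and *Mrps5* and *Zfp661* at 0.58 and 0.03. *Mrpl30* and *Mitd1* were at 0.23 and 0.53, so the partner was the higher of the pair, and *Mrpl40* and the histone chaperone gene *Hira* were at 0.16 and -0.54. None of the 22 partners passed an adjusted p below 0.05 in edgeR, the smallest being 0.897. Exons of 23 of the 77 genes overlap exons of another protein-coding gene, and whether strand was used in counting is not given in the sources used here, so the counts of these genes are uncertain. Besides *Mrps6*, *Mrps25* and *Mrpl46*, they include *Mrps30* with 623 shared bases, *Mrpl14* with 106 and *Mrpl27* with 75, all with a gene on the other strand.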

How the data were processed

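Expected counts, TPM and FPKM per gene were deposited by the authors as 1 RSEM table per library, after FastQC and alignment to mm10 with Bowtie. Both Bowtie and Bowtie2 are named in the submitters' notes, and their versions are not given in the sources used here. The deposited expected counts are estimated fragments per gene and are not normalized, whereas the deposited TPM and FPKM were scaled by the authors for length and depth. The deposited table that combines all samples was not used. Depth, given with the results, was 46989997 to 74548723 counts per library. Reads shared by near-identical copies are divided by RSEM's model.

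Expected counts were rounded and 14143 genes were kept by filterByExpr (minimum count 10). After TMM scaling, the groups were compared by edgeR 4.0.16's quasi-likelihood test in R 4.3.3 with no block, adjusted by Benjamini-Hochberg over all genes (common biological coefficient of variation 0.232, prior degrees of freedom 3.77). Standard errors come from the fold change and the F statistic, and SDs from the 2 libraries of a group. DESeq2 1.42.0, the tool of the methods, and limma 3.58.1 on log2(TPM + 1) and log2(TPM + 0.1) were alternatives, with other scalings, filters, the replicate number as a block and each library left out. Both count tests were tested on simulated data. Counts of genes without overlap with a library left out, and list medians under each alternative, were added after seeing the data.

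The members and lists were chosen with earlier results of these data known. Genes were named by rule: the 5 highest and 5 lowest log2 fold changes, any at an unadjusted p below 0.05, the 5 highest and 3 lowest in mean TPM, and genes with a known role. Pairs, and genes of the translation factor and biogenesis lists other than *Myc*, were named after their values were seen. Gene positions came from GENCODE M21 and promoter windows from RefSeq (GRCm38.p6). With 2 libraries against 2, an exact permutation test of a single gene could not pass 0.05, and none was run.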

Additional observations from a re-analysis of the deposited data

How the results depend on the processing

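The lowest count of any member in any library was 392, and each group had 2 libraries. Of the counts and medians over the 77 genes, those that moved under another scaling or unit were the following. With library totals the median log2 fold change was 0.313, the difference between the EV RV replicates was -0.463 and 0 genes were lower without overlap (11.5% of all genes tested), and with FPKM 0 were lower without overlap (11%). With TPM 27 were higher (11.6%) and 10 lower (23.2%) without overlap. The cause was not tested. Leaving out single libraries gave medians of 0.055 (without EV RV replicate 1) to 0.371 (without EV RV replicate 2), 0 to 3 genes past an adjusted p below 0.05 in edgeR, 0 to 40 higher at an unadjusted p below 0.05, 43 to 69 higher without overlap (28.4% to 42.6% of all genes tested, the 69 and 42.6% both without EV RV replicate 2) and 4 to 14 lower without overlap (27.6% to 41.7% of all genes tested, with 33.5% beside the 14). Fewer libraries make non-overlap easier to reach. The number fitted higher was 49 without EV RV replicate 1 and 66 to 70 without any other library, and it was 57 with limma on either TPM scale. With library totals 76 of the 77 genes were fitted higher, where the median of all genes was 0.124. Sign changes of single genes are listed only for the 28 genes named by rule. Of these 28, single genes changed sign with library totals (*Mrpl14* 0.052, *Mrpl46* 0.029, *Mrpl52* 0.035, *Mrps16* 0.009, *Mrps18a* 0.067), with limma on log2(TPM + 1) (*Mrpl33* -0.01, *Mrpl17* -0.034) and on log2(TPM + 0.1) (*Mrpl33* -0.01, *Mrpl17* -0.038). Among the same 28, signs also changed when a library was left out, over ranges of -0.305 to 0.14 for *Mrpl52*, -0.174 to 0.52 for *Mrpl20*, -0.005 to 0.154 for *Mrpl33*, -0.011 to 0.101 for *Mrpl17*, -0.081 to 0.448 for *Mrps25*, -0.137 to 0.043 for *Mrps18a*, -0.161 to 0.014 for *Mrpl14* and -0.24 to 0.041 for *Mrpl46*. Other members changed sign as well, such as *Mrps14* over -0.256 to 0.403. With the replicate number as a block, 4 genes were higher at an unadjusted p below 0.05 (*Mrpl42*, *Mrps22*, *Mrps5*, *Mrps6*; 2.88% of all genes tested), 0 passed an adjusted p below 0.05 in edgeR and the median was 0.198. The deviations of same-numbered libraries correlated at 0.302 over genes, but with 2 pairs and no label that ties the numbers to a mouse the libraries share only a number. DESeq2, median-of-ratios scaling, TMM without *Rn45s* and both other filters left the median at 0.187 to 0.208. No row was named as a pseudogene, so the alternative without such rows gave no value.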
